A study of Mus musculus with 10 samples.

Results

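Loss of Eed in CJ7 mouse embryonic stem cells was described from newly made RNA, by setting the Eed null cells against wild-type CJ7 cells gene by gene. The comparison uses 4 of the 10 samples of the series, 2 labelled wild-type CJ7 and 2 labelled Eed null. The authors deposited each pair as 1 pooled column, so each side is a single value per gene with no replicate error and no test is possible. The assay was Bru-seq: cells took up bromouridine (2 mM, 10 min), labelled RNA was captured with an antibody to it, freed of ribosomal RNA and sequenced. All groups were grown with LIF and the inhibitors PD0325901 (1 µM, against MEK) and CHIR99021 (3 µM, against GSK3), a medium called 2i that holds stem cells in a ground state. Feeder fibroblasts, removed by plating, appear in the growth protocol, whereas RNA extraction is described for gelatin-coated dishes without feeders. The other 6 samples are single libraries from Elongin A lines, 2 each with wild-type Elongin A (EloA_WT) or with its lysine replaced (EloA_K754M, EloA_K754R). They serve here as a further set of stem cell values. Label fields conflict for the Eed null samples: the genotype field reads EloA null and the line field CCE28, but title and column name read Eed null and CJ7. Titles were followed. The Eed allele, the number of clones and whether the replicates were separate cultures are not given in the labels.

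Eed belongs to the core of Polycomb repressive complex 2 (PRC2), together with Suz12 and the catalytic subunit Ezh2 or Ezh1. Eed binds trimethylated lysine 27 of histone H3, the mark that PRC2 itself makes, and it is needed for the activity of the complex. In embryonic stem cells PRC2 is known for keeping developmental regulators, such as Hox genes and other lineage transcription factors, at very low expression, mostly at CpG-rich promoters. Polycomb repressive complex 1 (PRC1) acts with it, partly through Cbx subunits that bind the same mark.

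The table holds intronic RPKM, in which reads that fall in introns are divided by intron length and by library depth. Introns are removed and degraded soon after they are made, so such reads report recent transcription rather than accumulated mRNA. Of 24901 gene lines, 14890 had a mean of 0.1 RPKM or more over both columns and were compared, and 10011 did not. The lowest mean kept was 0.100026 RPKM and the highest left out 0.0999724 RPKM. Whole reads could be recovered from the RPKM, giving 48573408 intronic reads in the wild-type pool and 40567124 in the Eed null pool, against 14910794 to 21973114 in the 6 single libraries. Differences are given as the log2 ratio of RPKM + 0.1, Eed null over wild type, which understates the change of low genes. Folds are plain ratios of RPKM, with exact 95% intervals from the recovered reads. Those intervals cover counting error only, since reads without molecular identifiers are not independent molecules, and the spread between cultures is unknown.

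More genes stood higher than lower in the Eed null cells. At least 2-fold higher values were found for 911 of the 14890 lines (6.12%) and at least 2-fold lower values for 248 (1.67%). At 4-fold the counts were 133 (0.893%) and 44 (0.296%). The whole distribution was shifted: the median log2 ratio was 0.11, and the middle 90% of lines lay between -0.60 and 1.1. After both columns were set to equal medians, 714 lines (4.8%) were higher and 327 (2.2%) lower, so the share of higher lines among those past 2-fold went from 78.6% to 68.6%. The counting interval lay above 1 for 791 of the 911 higher lines and below 1 for 167 of the 248 lower lines. The higher group was mostly of genes near silence in wild-type cells, with a median of 0.153 RPKM there and 0.665 RPKM in Eed null cells. The lower group went from a median of 0.805 RPKM to 0.198 RPKM, beside medians of 0.997 and 1.12 RPKM over all lines. Genes at 0.05 RPKM or less in wild-type cells and at 0.5 RPKM or more in Eed null cells numbered 54, and 23 lines showed the reverse.

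**Figure D1:**
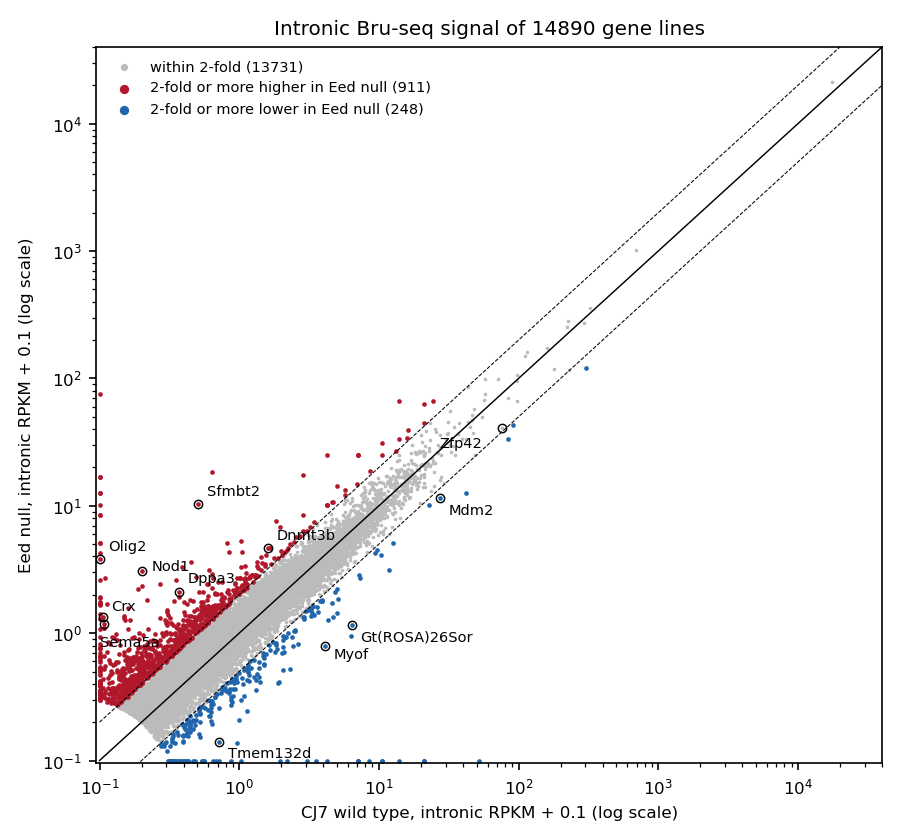
Intronic RPKM + 0.1 in the wild-type CJ7 pool (horizontal, log scale) against the Eed null pool (vertical, log scale) for 14890 gene lines, 1 point each, with the line of equality and dashed lines at 2-fold. The 911 red points are mostly at the low end of the wild-type axis, and the 248 blue points lie below the lower dashed line.

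The 6 Elongin A libraries give a scale for this. Between labelled replicates of 1 Elongin A line, 3.73% to 8.49% of lines differed by 2-fold or more, and the Eed null and wild-type pools differed by that much at 7.78% of lines. The total is therefore within the span of single-library replicate pairs, which are also shallower. The most uneven replicate pair, EloA_K754M, had 1110 lines 2-fold higher in its second library and 253 lower. The place of the Eed null value among all 8 columns is given as a description, since lines past 2-fold were picked by that value and a high or low place is partly fixed by the choice. The Eed null value was above every other column for 700 of the 911 higher lines (76.8%), beside 23.9% of all lines compared. It was below every other column for 123 of the 248 lower lines (49.6%), beside 16.1% of all lines. For 238 of the higher lines and 80 of the lower lines, wild-type CJ7 was itself the lowest or the highest of the 8 columns.

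Low and short genes carried many of the differences. At a mean of 0.1 to 0.2 RPKM 10.7% of lines were 2-fold higher, at 0.2 to 0.5 RPKM 11.8%, and at 2 to 5 RPKM 1.24%. Above that the share rose again, to 2.03% at 5 to 10 RPKM and 5.06% at 10 RPKM or more. The median log2 ratio went from 0.26 in the lowest of these bins to 0.02 at 2 to 5 RPKM. Lines with under 1 kb of intron were 2-fold higher at 15% and 2-fold lower at 7.47%, and lines with 30 to 100 kb at 4.91% and 0.624%. With 100 to 300 kb the shares were 6.88% and 1.54%. Among all lines with any read and a mean under 0.5 RPKM, 66.2% had the higher RPKM in Eed null cells. Shares in lists of genes that are silent in stem cells are therefore to be read against the low bins as well as against all genes.

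**Figure D2:**
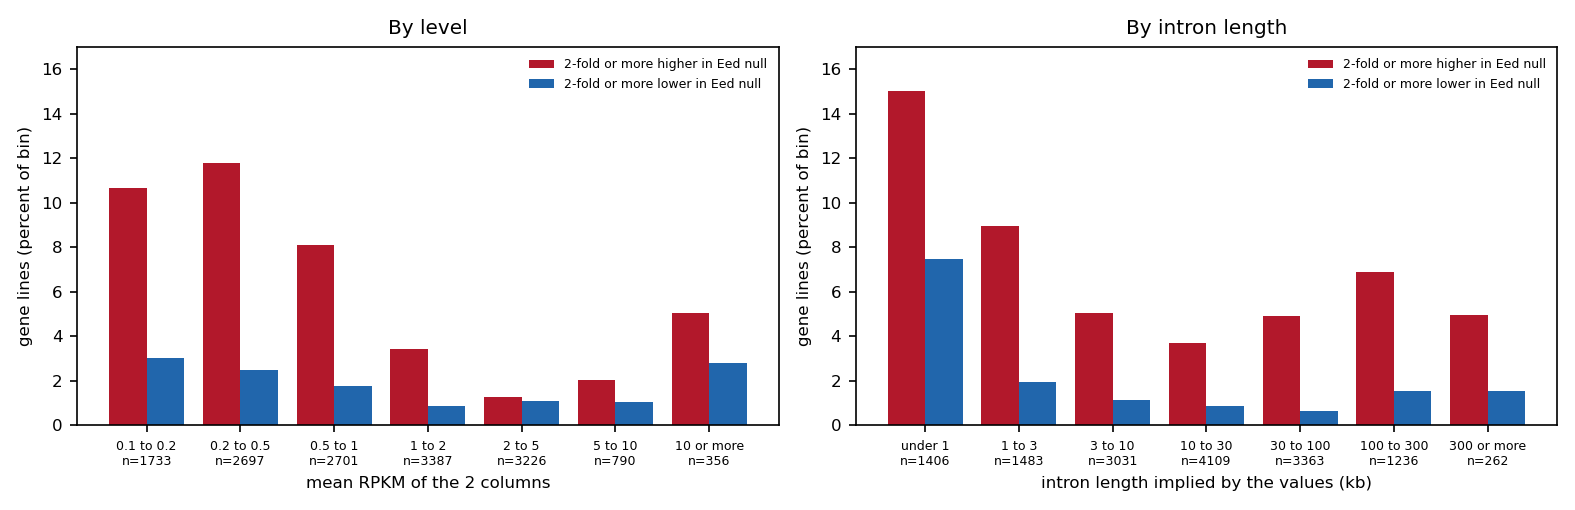
Percent of gene lines 2-fold or more higher (red) or lower (blue) in Eed null cells, by mean RPKM of both columns (left) and by the intron length that the values imply in kb (right), with the number of lines under each bin. The higher share is 10.7% and 11.8% in the lowest bins of level and 15% in lines with under 1 kb of intron.

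The genes of the PRC2 subunits themselves stood close to their wild-type level. Eed gave 10.0 RPKM in wild-type cells and 7.97 RPKM in Eed null cells, with 10.3 to 17.1 RPKM in the 6 other libraries, so the Eed null value was the lowest of the 8. It was 1.26-fold lower (95% counting interval of the ratio 0.773 to 0.819). Intronic reads over the whole gene do not test a lesion that leaves the transcript in place, so this value does not check the label. Ezh2, the main methyltransferase of the complex in stem cells, was at 5.09 and 4.45 RPKM, and Suz12 at 15.6 and 16.1 RPKM. Ezh1, the alternative catalytic subunit, was at 0.686 and 0.883 RPKM, and Jarid2, an accessory subunit that helps recruit the complex, at 14.8 and 14.4 RPKM. None of the 11 compared PRC2 genes was past 2-fold, and their median log2 ratio was -0.17 against 0.11 for all genes. Rbbp7, a histone-binding subunit on the X chromosome, was at 9.61 and 7.22 RPKM, and Phf1, an accessory subunit, at 2.05 and 1.49 RPKM.

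Of the 23 PRC1 genes, 1 was past 2-fold higher (4.35%, beside 6.12% of all lines) and none lower. Their median log2 ratio was 0.17, with 15 positive, 8 negative and 12 above the median of all genes. The gene past 2-fold was Pcgf5, a subunit of variant PRC1, at 0.511 RPKM in wild-type and 1.34 RPKM in Eed null cells. It was 2.61-fold higher (2.47 to 2.76), above the 0.525 to 0.836 RPKM of the other libraries. Bcor, which belongs to another variant complex, was at 0.872 and 1.75 RPKM, and Phc2 at 0.322 and 0.658 RPKM, in both cases with the Eed null value above all others. Cbx2, which reads the PRC2 mark, was at 0.339 and 0.744 RPKM, but its range in the 6 libraries, 0.522 to 1.96 RPKM, held the Eed null value. Tceb3, which encodes Elongin A, a factor that aids elongation by RNA polymerase II, was at 1.51 and 1.89 RPKM, within 1.12 to 2.03 RPKM elsewhere. The 21 Elongin and elongation factor genes had a median log2 ratio of 0.01 and none was past 2-fold.

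Of 9 DNA methyltransferase and TET genes, 2 were 2-fold higher (22.2%, beside 6.12% of all lines), none was lower, and the median log2 ratio was -0.04. Dnmt3l, the catalytically inactive partner of the de novo enzymes, was at 1.00 RPKM in wild-type and 3.28 RPKM in Eed null cells, and at 0.726, 1.06 and 1.79 RPKM as the lowest, median and highest of the 6 libraries. It was 3.27-fold higher (3.03 to 3.54). Dnmt3b, a de novo methyltransferase, was at 1.51 and 4.54 RPKM (3.01-fold, 2.87 to 3.15), with 1.84 to 2.78 RPKM elsewhere. Both Eed null values were above every other column, and for Dnmt3b the wild-type CJ7 value was also the lowest. Each overlaps a gene on the opposite strand (Aire and Dnmt3bos), and strand handling is not given. The other de novo enzyme, Dnmt3a, was at 0.443 and 0.476 RPKM. The maintenance enzyme Dnmt1 was at 4.50 and 4.34 RPKM, and the oxidases Tet1 and Tet2 at 15.8 against 12.6 and 8.72 against 7.20 RPKM.

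The genes with the largest ratios included several that were at or near 0 in all other columns. Olig2, a basic helix-loop-helix factor of oligodendrocyte and motor neuron progenitors, had 0 reads in wild-type cells and 103 reads, or 3.71 RPKM, in Eed null cells. Against a floor of 3 reads in the wild-type pool this was at least 41.1-fold higher, and the exact 95% interval of the ratio starts at 32.8. The 6 libraries gave 0 RPKM in all but 1, which gave 0.150 RPKM. Sfmbt2, an imprinted gene encoding a Polycomb group protein, went from 0.410 to 10.2 RPKM (24.8-fold, 24.0 to 25.6), on 82802.5 reads over 203 kb of intron. Its other values were 0.415, 0.674 and 1.74 RPKM as lowest, median and highest, so the Eed null pool stood alone. Nod1, a cytosolic sensor of bacterial peptidoglycan, was at 0.0998 and 3.00 RPKM (30.0-fold, 26.2 to 34.6), with 0.0878 to 0.141 RPKM elsewhere.

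Crx, a homeobox factor of photoreceptors, had 3 reads in wild-type and 537 reads in Eed null cells, or 0.00575 and 1.23 RPKM (ratio 214, 72.9 to 1042). Sema5a, an axon guidance semaphorin with 439 kb of intron, had 151 and 19028 reads, or 0.00716 and 1.08 RPKM (151-fold, 129 to 178). In both genes the highest of the 6 libraries stayed at 0.122 and 0.123 RPKM. Osr2, a zinc finger factor of limb and palate development, was at 0.0532 and 1.17 RPKM (22.0-fold, 10.3 to 55.5). Lmo1, a LIM-only transcription cofactor, was at 0.0652 and 1.18 RPKM (18.1-fold, 14.7 to 22.5), above 0.0400 to 0.132 RPKM in the 6 libraries. Guca1a, a guanylate cyclase activator of photoreceptors, was at 0.0485 and 1.25 RPKM.

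The rest of the 15 largest ratios were of mixed kinds. Tmem92, a membrane protein gene, had 2 and 210 reads (0.0126 and 1.59 RPKM, ratio 126, 34.4 to 1044). P4ha2, a collagen prolyl hydroxylase subunit, was at 0.292 and 3.20 RPKM (11.0-fold, 9.83 to 12.3), and the 6 libraries reached 1.29 RPKM. Trim43a, a gene of the early cleavage embryo, was at 0.350 and 3.5 RPKM. Its family has near-identical copies, so its reads may be shared. Rptn and Hrnr, neighbouring genes of the epidermal differentiation complex on chromosome 3, were at 0.169 and 2.35 RPKM and at 0.0238 and 0.834 RPKM. Both overlap the same transcript on the opposite strand, Gm37245, and were not told apart from it. Slfn2, a Schlafen family gene of immune cells, was at 0.0320 and 0.882 RPKM, and the pseudogene Gpr137b-ps at 0.0266 and 0.824 RPKM. In all 15 genes the Eed null value was above the other 7 columns.

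**Figure D3:**
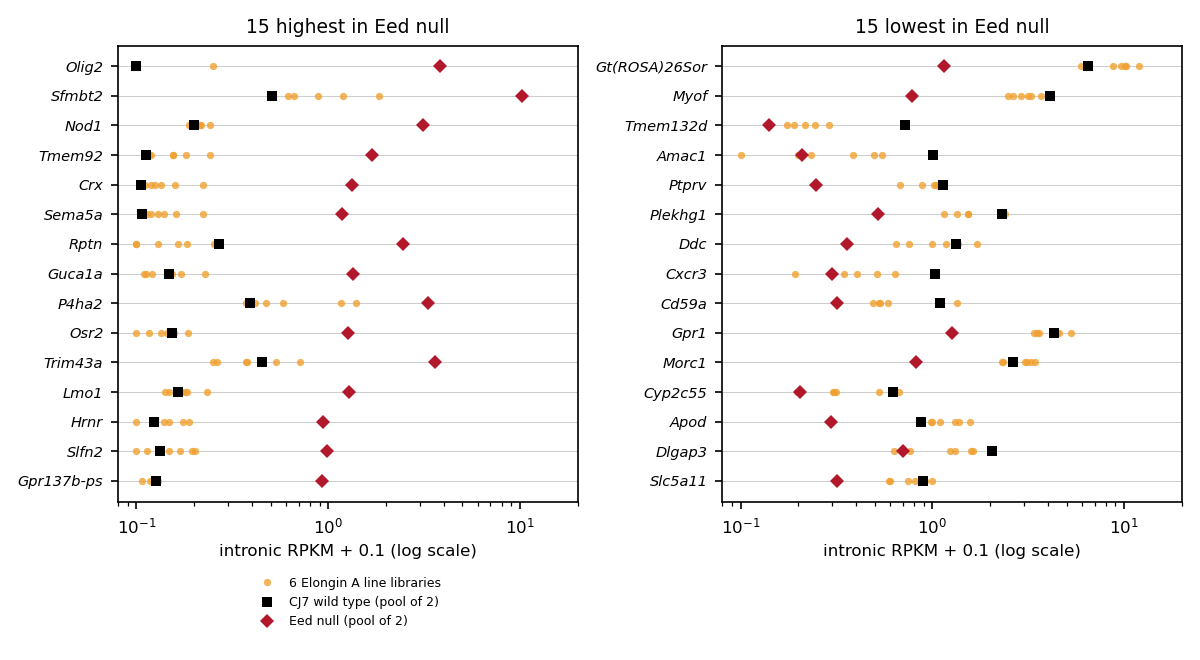
Intronic RPKM + 0.1 (log scale) of the 15 genes with the largest (left) and the smallest (right) ratio, in the Eed null pool (red diamonds), the wild-type CJ7 pool (black squares) and the 6 single Elongin A libraries (orange circles). On the left the red diamond is the rightmost symbol in every row. On the right the wild-type square lies well to the right of the orange circles for Tmem132d, where the 6 libraries reach 0.189 RPKM.

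Because PRC2 is known for CpG-rich promoters, the bases before the start are shown for the 4 genes highest in ratio with an entry in the RefSeq promoter table, and for Myof from the lower end. Each is the 250 bases before the most upstream start, 5′ to 3′ on the gene's strand, from GRCm38.p6, with every CG dinucleotide in capitals. CG reads the same on both strands, and the median over 27025 promoters of the table, 1 per gene, was 6.
Olig2: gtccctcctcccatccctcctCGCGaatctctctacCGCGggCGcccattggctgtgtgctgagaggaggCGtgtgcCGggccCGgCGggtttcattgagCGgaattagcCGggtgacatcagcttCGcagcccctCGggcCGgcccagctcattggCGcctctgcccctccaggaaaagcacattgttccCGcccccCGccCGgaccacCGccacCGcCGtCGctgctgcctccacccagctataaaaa
Sfmbt2: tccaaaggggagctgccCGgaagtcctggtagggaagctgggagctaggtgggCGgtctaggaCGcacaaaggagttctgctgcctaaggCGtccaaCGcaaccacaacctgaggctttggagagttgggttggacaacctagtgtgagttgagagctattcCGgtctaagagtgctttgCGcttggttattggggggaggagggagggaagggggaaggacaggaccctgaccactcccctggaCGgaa
Nod1: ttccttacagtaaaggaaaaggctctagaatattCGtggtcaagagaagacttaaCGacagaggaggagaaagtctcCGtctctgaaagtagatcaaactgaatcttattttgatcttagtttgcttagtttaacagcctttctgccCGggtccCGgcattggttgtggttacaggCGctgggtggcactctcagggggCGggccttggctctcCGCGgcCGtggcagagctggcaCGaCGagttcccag
Crx: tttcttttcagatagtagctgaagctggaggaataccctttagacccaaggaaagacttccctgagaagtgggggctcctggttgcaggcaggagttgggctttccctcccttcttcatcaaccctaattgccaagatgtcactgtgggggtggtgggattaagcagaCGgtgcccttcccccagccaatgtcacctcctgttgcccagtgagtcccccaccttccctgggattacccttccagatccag
Myof: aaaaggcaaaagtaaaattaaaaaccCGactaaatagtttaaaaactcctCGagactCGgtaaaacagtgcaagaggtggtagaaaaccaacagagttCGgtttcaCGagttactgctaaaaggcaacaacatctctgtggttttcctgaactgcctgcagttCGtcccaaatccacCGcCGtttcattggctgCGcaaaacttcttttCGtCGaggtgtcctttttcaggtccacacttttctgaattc
The Olig2 stretch (chr16:91225300-91225549, plus strand) held 22 CG, and 14.6% of promoters in the table held as many or more. The Sfmbt2 stretch (chr2:10370201-10370450, plus strand) held 8, with 43.4% holding as many or more. The Nod1 stretch (chr6:54972613-54972862, minus strand) held 12, with 33.8% holding as many or more. The Crx stretch (chr7:15879956-15880205, minus strand) held 1, and 19.5% of promoters held as few or fewer. The Myof stretch (chr19:38043578-38043827, minus strand) held 11. These 4 high genes therefore ranged from CpG-rich to CpG-poor in this window. A comparison of CpG content between the higher, lower and other genes was void, since only 72.1% of the compared lines, 62.8% of the higher and 45.2% of the lower, had an entry and 80% were required.

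At the lower end, fewer genes stood apart from the Elongin A libraries as well. Gt(ROSA)26Sor, the non-coding transcript of the Rosa26 locus used for knock-ins, was at 6.35 RPKM in wild-type and 1.05 RPKM in Eed null cells (6.03-fold lower), with 5.88, 9.73 and 11.9 RPKM as the lowest, median and highest of the 6 libraries. It overlaps Thumpd3 on the opposite strand, so the reads may belong to either. Myof, a ferlin of membrane repair, was at 4.00 and 0.686 RPKM (5.83-fold lower), with 2.37 to 3.57 RPKM elsewhere. Plekhg1, a guanine nucleotide exchange factor, was at 2.22 and 0.421 RPKM, with 1.04 to 2.30 RPKM elsewhere, and Morc1, a germline gene of transposon silencing, at 2.52 and 0.721 RPKM, with 2.21 to 3.34 RPKM elsewhere. For these 4 genes the Eed null value was below the other 7 columns.

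Gpr1, a receptor of chemerin in the imprinted region of Zdbf2, was at 4.21 and 1.17 RPKM against 3.27 to 5.15 RPKM in the 6 libraries. Ddc, the enzyme that makes dopamine and serotonin, was at 1.22 and 0.258 RPKM (4.75-fold lower), and the 6 libraries lay between 0.548 and 1.61 RPKM. Apod, a secreted lipocalin, was at 0.776 and 0.197 RPKM against 0.878 to 1.48 RPKM. For other genes the wild-type pool was the one apart. Tmem132d, a neuronal membrane protein gene with 671 kb of intron, was at 0.622 RPKM in wild-type and 0.0406 RPKM in Eed null cells (15.3-fold lower), but the 6 libraries lay between 0.0393 and 0.189 RPKM and held the Eed null value. Likewise Dlgap3, a postsynaptic scaffold, was at 1.94 and 0.598 RPKM with 0.529 to 1.53 RPKM elsewhere. Cxcr3, a chemokine receptor gene on the X chromosome, rested on 45 and 8 reads, and Amac1 on 20 and 2 reads (ratio 0.12, 0.0136 to 0.493).

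Homeobox and other developmental factors, the class best known as PRC2 targets, were more often higher than lower. Of 79 homeobox genes outside the Hox clusters, 33 were compared and 10 of these (30.3%) were 2-fold higher, with 1 lower. That is above the 6.12% of all lines and the 10.7% to 11.8% of lines under 0.5 RPKM. Over all 78 members with any read, filter or not, 65 had the higher RPKM in Eed null cells (83.3%), beside 66.2% of all lines under 0.5 RPKM. Gsc, a factor of the gastrula organizer, was at 0.219 and 1.22 RPKM (5.58-fold, 2.68 to 13.0), and the 6 libraries reached 0.865 RPKM. Pitx1, a factor of hindlimb and pituitary, was at 0.0688 and 0.505 RPKM (7.35-fold, 4.91 to 11.4) against at most 0.0390 RPKM elsewhere. Msx2, a target of BMP signalling, was at 0.123 and 0.680 RPKM, and Lmx1b, a factor of limb and midbrain, at 0.306 and 1.30 RPKM (4.23-fold, 3.95 to 4.52), with 0.0595 to 0.151 RPKM elsewhere. Meis1, Cdx1, Otx1, En2 and Six2 were also among the higher genes. The lower gene was Otx2, a factor of the epiblast and forebrain, at 0.710 and 0.254 RPKM (2.79-fold lower).

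The list of T-box, GATA, Sox, Fox and helix-loop-helix factors also held zinc finger factors of other families, such as Prdm16, Bcl11b and Sall1. It gave 11 higher (30.6%) and 2 lower of 36 compared, from 72 in the table. Over all lines 6.12% were higher, and 10.7% to 11.8% under 0.5 RPKM. Of the 64 members with any read, 51 were higher in Eed null cells (79.7%), beside 66.2% of all lines under 0.5 RPKM. After Olig2 the largest ratios were Prdm16, a zinc finger factor of brown fat, at 0.0684 and 0.505 RPKM (7.38-fold, 6.91 to 7.90), and Tbx20, a cardiac T-box factor, at 0.0550 and 0.431 RPKM. Bcl11b, a factor of T cells and neurons, was at 0.0990 and 0.496 RPKM. These 3 were above every other column. The 2 lower genes were Sall1, a zinc finger factor, at 4.91 and 2.12 RPKM, below the 6.04 to 7.55 RPKM of the 6 libraries, and Sox18 on 2 and 0 reads.

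The Hox clusters were less distinct by the count past 2-fold only. Of 39 Hox genes, 26 were compared, 3 were 2-fold higher (11.5%) and none lower, a share close to that of all lines under 0.5 RPKM. The 3 were Hoxd10, at 0.0915 and 0.420 RPKM on 6 and 23 reads (4.59-fold, 1.82 to 13.8), and Hoxd9 and Hoxb2 on at most 13 reads. The median log2 ratio was 0.54, beside 0.49 for the homeobox genes outside the clusters. Of 37 members with any read 30 were higher in Eed null cells (81.1%), beside 66.2% of all lines under 0.5 RPKM. Only 6 of the 39 reached 0.5 RPKM in either column. Hoxa10 was at 0.168 and 0.403 RPKM and Hoxc9 at 0.405 and 0.824 RPKM. Reads of neighbouring Hox genes that share introns cannot be told apart: Hoxc9 and Hoxc10 lie within an annotated Hoxc5 transcript.

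Of the signalling lists, WNT had the largest share of higher genes. In WNT signalling secreted ligands act through Frizzled receptors and beta-catenin. Of its 19 compared genes 5 (26.3%) were 2-fold higher and 1 lower. Over all lines 6.12% were higher, and 10.7% to 11.8% under 0.5 RPKM. Of 35 members with any read 28 were higher in Eed null cells (80%), beside 66.2% of all lines under 0.5 RPKM. Wnt7b, a ligand, was at 0.228 and 0.693 RPKM (3.04-fold, 2.73 to 3.39). The feedback inhibitors Axin2 and Nkd1 were at 0.684 against 1.78 RPKM and at 0.0679 against 0.256 RPKM, and Lef1, the nuclear partner of beta-catenin, at 0.0355 against 0.263 RPKM (7.43-fold, 6.34 to 8.75). All 4 Eed null values were above the other columns. The fifth was Dkk1, an inhibitor, on 3 and 14 reads, and the lower gene was the receptor Fzd5, on 41 and 16 reads. Every group received the GSK3 inhibitor CHIR99021, which activates this pathway.

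In the Nodal, BMP and TGF-beta list 5 of 31 (16.1%) were higher and none lower, beside 6.12% higher over all lines. Of 37 members with any read 27 were higher in Eed null cells (73%), beside 66.2% of all lines under 0.5 RPKM. Lefty2 and Lefty1, secreted inhibitors of Nodal, were at 1.73 against 7.56 RPKM (4.37-fold, 3.83 to 5.01) and at 0.321 against 1.58 RPKM. The 6 libraries spread widely for both, 0.391 to 6.79 RPKM for Lefty2 and 0.245 to 3.91 RPKM for Lefty1, and they held the Lefty1 value of the Eed null cells. Id2, an inhibitor of helix-loop-helix factors, was at 0.366 and 1.71 RPKM, and the BMP ligand genes Bmp6 and Bmp7 at 0.0569 against 0.282 RPKM and 0.194 against 0.530 RPKM. Of 22 FGF, Hedgehog, Notch and retinoic acid genes, 3 (13.6%) were higher, beside 6.12% of all lines and 10.7% to 11.8% under 0.5 RPKM. Of 39 members with any read 28 were higher (71.8%). The 3 past 2-fold were the receptor Fgfr3 (0.0369 and 0.347 RPKM), the Notch ligand Jag2 (0.196 and 0.681 RPKM) and the ligand Fgf10 (0.177 and 0.490 RPKM). The Fgf10 value of the Eed null cells lay within the 0.313 to 0.704 RPKM of the 6 libraries.

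Pluripotency genes were present in both columns. All 8 stem cell markers found in the table were at 2.71 RPKM or more in each, and Sox2 had no line. The 27 compared naive pluripotency genes had a median log2 ratio of 0.08, below that of all genes. Of these, 1 was past 2-fold higher (3.7%, beside 6.12% of all lines) and none lower. Pou5f1, the core factor Oct4, was at 7.45 and 9.38 RPKM, both under the 15.0 to 36.5 RPKM of the 6 libraries. Nanog was at 39.1 and 33.6 RPKM, both above the 18.0 to 24.2 RPKM elsewhere, and Klf4 and Esrrb at 6.31 against 7.79 and 6.85 against 5.64 RPKM. Zfp42, the naive marker Rex1, was at 75.7 and 41.0 RPKM (1.85-fold lower), and the Eed null value was under the 54.5 to 79.3 RPKM of the 6 libraries. The gene past 2-fold was Dppa3, a maternal and germ cell factor, at 0.273 and 2.01 RPKM (7.36-fold, 5.23 to 10.6), with at most 0.332 RPKM elsewhere. Of 15 primed pluripotency genes, 3 were higher (20%) and 1 lower (Otx2). Over all lines 6.12% were higher, with 11.8% at 0.2 to 0.5 RPKM and 8.11% at 0.5 to 1 RPKM. The 3 were Dnmt3b and Lef1, which also stand on other lists, and Cldn6, on 3 and 25 reads.

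Lineage lists were mixed. Of 17 compared endoderm genes, from 27 in the table, 6 (35.3%) were higher and 1 lower, beside 6.12% of all lines and 10.7% to 11.8% of lines under 0.5 RPKM. Their median log2 ratio was 0.74. Of the 24 members with any read 19 were higher in Eed null cells (79.2%), beside 66.2% of all lines under 0.5 RPKM. Lamb1, a laminin chain of basement membrane, was at 0.447 and 1.65 RPKM (3.69-fold, 3.45 to 3.94). The collagen genes Col4a1 and Col4a2, which share a promoter region and overlap, were at 0.675 against 1.84 RPKM and 0.439 against 1.21 RPKM. Gata6, Gata4 and Sox7, transcription factors of primitive endoderm, were at 0.185 against 0.622 RPKM, 0.123 against 0.365 RPKM and 0.0388 against 0.192 RPKM. The lower gene was Ttr, a thyroxine carrier, at 0.321 and 0.0666 RPKM, with 0.0198 to 0.270 RPKM in the 6 libraries. Of 10 mesoderm genes 3 were higher (30%, Snai1, Tbx20 and Gata4) and Tek was lower. Of 14 trophectoderm genes 2 were higher (14.3%, Rhox6 and Gata2), and of 12 neuroectoderm genes 1 (8.33%, Zbtb16). These shares also stand beside 10.7% to 11.8% of lines under 0.5 RPKM. For Snai1, Rhox6 and Tek the Eed null value lay within the range of the 6 libraries.

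Markers of other cells that the cultures could hold were found at varied levels. Primitive endoderm markers summed to 0.588 RPKM in wild-type and 1.79 RPKM in Eed null cells, against 0.408 to 0.988 RPKM in the 6 libraries, with Foxa2 at 0 in both pools and 5 and 3 of the 8 markers under 0.1 RPKM. The 6 defining fibroblast markers summed to 4.91 and 6.02 RPKM, against 1.73 to 3.93 RPKM in the 6 libraries, with Col1a1 at 3.13 and 3.80 RPKM (0.578 to 1.33 RPKM in the 6 libraries), Col1a2 at 1.27 and 1.37 RPKM and Dcn at 0.00854 and 0.0123 RPKM. Of 29 compared genes on the wider fibroblast list 1 was 2-fold higher, Thy1 (3.45%, beside 6.12% of all lines). The trophectoderm, neuroectoderm and mesoderm markers summed to 0.780, 1.76 and 0.876 RPKM in wild-type and to 1.16, 2.15 and 1.1 RPKM in Eed null cells. All these sums lay within those of the 6 libraries, 0.671 to 1.29, 1.38 to 2.81 and 0.870 to 1.44 RPKM. Fewer cells of a type and less RNA per cell cannot be told apart in such bulk samples, and the part of these cells in the gene differences was not tested.

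Germline and early embryo genes held the largest share of higher genes among the 32 lists. Of 26 compared, 10 (38.5%) were 2-fold higher and none lower, beside 6.12% higher over all lines and 10.7% to 11.8% under 0.5 RPKM. Their median log2 ratio was 0.73. Of 31 members with any read 25 were higher in Eed null cells (80.6%), beside 66.2% of all lines under 0.5 RPKM. Sycp1, a protein of the synaptonemal complex of meiosis, was at 0.241 and 1.67 RPKM (6.95-fold, 6.56 to 7.37), and the 6 libraries lay between 0.126 and 0.245 RPKM. Mov10l1 and Piwil2, both of the piRNA pathway that silences transposons, were at 0.132 against 0.671 RPKM and 0.371 against 1.40 RPKM, again above every other column. Zscan4d, a gene of the 2-cell stage, was at 0.0497 and 0.575 RPKM on 6 and 58 reads, and its family members are near-identical, so its reads may be shared. Ddx4, Mael, Tdrd9, Tex101, Brdt and Syce1 completed the 10, and for Syce1 the Eed null value of 1.52 RPKM lay within the 0.890 to 1.87 RPKM of the 6 libraries.

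Imprinted genes went both ways, with 3 of 27 higher (11.1%), 3 lower (11.1%) and a median log2 ratio of -0.31. Over all lines 6.12% were higher and 1.67% lower. Besides Sfmbt2 the higher genes were Airn, the antisense transcript that silences Igf2r, at 0.904 and 1.94 RPKM, and H19, which rested on 1.5 and 12.5 reads. Igf2r itself, which overlaps Airn, was at 1.56 and 2.92 RPKM. The lower genes lay together in the Dlk1-Dio3 region of chromosome 12. Meg3 was at 9.21 and 4.18 RPKM (2.20-fold lower), Rian at 4.75 and 1.99 RPKM, and Rtl1 at 3.34 and 1.29 RPKM. Mirg, from the same region, was at 1.51 and 0.810 RPKM. The wild-type pool was already below the 6 libraries for Rian (6.77 to 13.0 RPKM) and Mirg (4.08 to 8.43 RPKM).

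Many genes of neuronal function had few reads. Of 48 axon guidance and synaptic adhesion genes with any read, 44 (91.7%) had the higher RPKM in Eed null cells, beside 66.2% of all lines under 0.5 RPKM. Of the 23 compared 5 (21.7%) were 2-fold higher, beside 6.12% of all lines and 10.7% to 11.8% under 0.5 RPKM. Beside Sema5a these were Ephb1 (0.0137 and 0.188 RPKM), Ephb2 (0.479 and 1.30 RPKM), both ephrin receptors, the netrin receptor Unc5b (1.08 and 2.61 RPKM) and Sema3f. The 6 libraries stayed at or below 0.991 RPKM for Unc5b and 0.266 RPKM for Ephb2. Of 50 ion channel genes, 39 of 48 with any read were higher (81.2%). Of the 17 compared, 10 had a positive log2 ratio and 2 were 2-fold higher (11.8%), Grin1 and Grin2a, a share close to that of the low bins, with Scn3a lower. For Grin1 the Eed null value of 1.47 RPKM lay within the 0.339 to 2.32 RPKM of the 6 libraries.

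**Figure D4:**
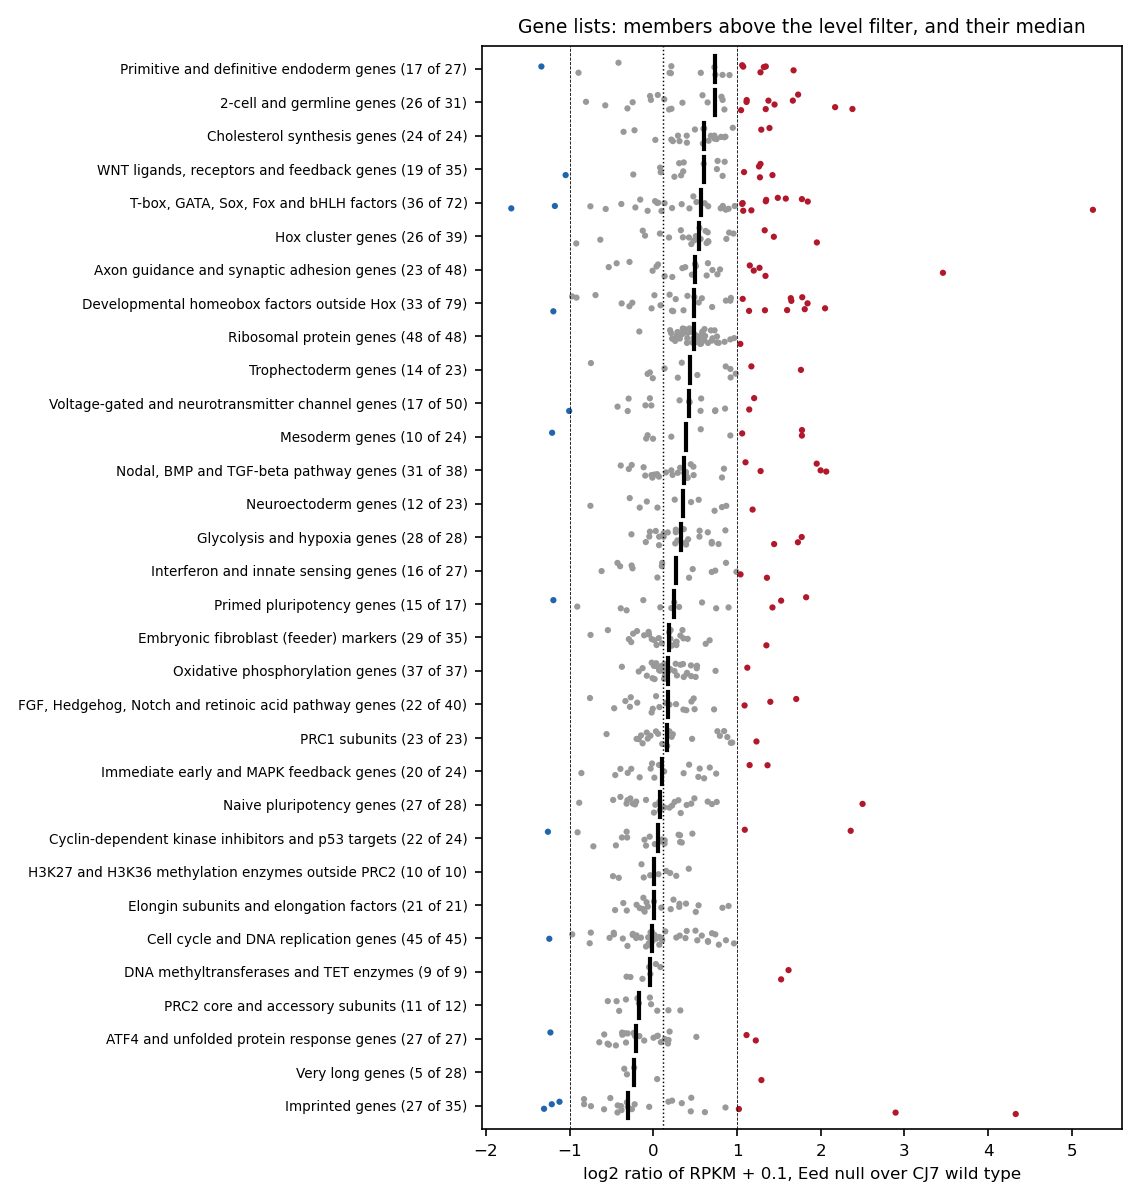
Log2 ratio of RPKM + 0.1, Eed null over wild-type CJ7 (horizontal), for the compared members of 32 gene lists, with the number compared of the number in the table. Points are genes, red at 2-fold higher and blue at 2-fold lower, black bars are list medians, the dotted line is the median of all genes (0.11) and dashed lines are 2-fold. Endoderm and germline genes have the highest medians (0.74 and 0.73) and imprinted genes the lowest (-0.31).

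Among genes active in every cell, the ribosomal protein genes showed a small but nearly uniform difference. Of 48, 47 had a positive log2 ratio, beside 61.8% of all lines, with a median of 0.49. Only 1, Rpl27a, was past 2-fold (2.08%, beside 6.12% of all lines). Their summed RPKM was 555 in wild-type and 787 in Eed null cells, but 1046 to 1716 in the 6 libraries, so both pools were low. Over all lines with under 1 kb and with 1 to 3 kb of intron the medians were 0.21 and 0.23, and the part of intron length in the list's median was not tested. Cholesterol synthesis genes had a median of 0.60, with 22 of 24 positive. Of these genes 2 were past 2-fold (8.33%), beside 8.11% of all lines at 0.5 to 1 RPKM and 3.4% at 1 to 2 RPKM. Fdps, which makes farnesyl diphosphate, was at 0.841 and 2.36 RPKM (2.81-fold, 2.30 to 3.44), and Insig1, a sterol sensor, at 1.37 and 3.49 RPKM. The Insig1 value of the Eed null cells lay within the 1.85 to 4.21 RPKM of the 6 libraries. The summed level of the list was 30.3 RPKM in wild-type and 46.8 RPKM in Eed null cells, and 29.4 to 39.0 RPKM elsewhere.

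Of 28 glycolysis and hypoxia genes 3 (10.7%) were higher, beside 6.12% of all lines. The list's median was 1.94 RPKM in wild-type and 2.34 RPKM in Eed null cells. Of all lines at a mean of 1 to 2 RPKM 3.4% were higher, and at 2 to 5 RPKM 1.24%. The 3 genes were Ndrg1 (0.200 and 0.924 RPKM), Egln3 (0.101 and 0.567 RPKM) and Bnip3 (0.5 and 1.53 RPKM). The 6 libraries reached 1.39, 0.553 and 1.81 RPKM for these. Of 45 cell cycle genes none was 2-fold higher and 1 was lower, Rbl2, a retinoblastoma family gene on chromosome 8, at 2.35 and 0.937 RPKM. Among Cdk inhibitors and p53 targets, Cdkn2a, a PRC2 target in many cells, was at 0.979 and 1.25 RPKM, both above the 0.257 to 0.652 RPKM of the 6 libraries, and Cdkn1a at 5.87 and 8.16 RPKM. Pmaip1, which encodes the pro-apoptotic protein Noxa, was at 0.741 and 4.21 RPKM (5.69-fold, 4.77 to 6.81), while Mdm2, the ubiquitin ligase of p53, was at 27.5 and 11.4 RPKM (2.41-fold lower). Both Eed null values were outside the range of the other columns.

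In the stress and immune lists few genes were past 2-fold. Of 27 genes of the ATF4 and unfolded protein response, 2 were higher (7.41%), Atf4 on 137 and 271 reads and Xbp1. The 1 lower gene was the cystine transporter Slc7a11, and the median log2 ratio was -0.21. Of 16 interferon and innate sensing genes 2 were higher (12.5%), the sensor Zbp1 (0.0486 and 0.281 RPKM) and Bst2. Of 20 immediate early and MAPK feedback genes 2 were higher (10%), Spry2 and Ier3. Over all lines 6.12% were higher, with 10.7% to 11.8% under 0.5 RPKM and 8.11% at 0.5 to 1 RPKM. At 1 to 2 RPKM the share was 3.4% and at 2 to 5 RPKM 1.24%. The ATF4 list had medians of 1.89 RPKM in wild-type and 2.08 RPKM in Eed null cells. The Eed null values of Atf4, Xbp1, Slc7a11, Bst2 and Spry2 lay within the range of the 6 libraries. The remaining lists, oxidative phosphorylation, histone methylation enzymes outside PRC2 and very long genes, held 1, 0 and 1 higher genes of 37, 10 and 5 compared, with positive log2 ratios for 31, 5 and 2. Here the 1 very long gene was Auts2, a PRC1 partner, at 0.329 and 0.95 RPKM (2.89-fold, 2.84 to 2.94), with at most 0.495 RPKM elsewhere.

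The ratio also differed between chromosomes. The median log2 ratio was -0.21 over 771 lines of chromosome 8 and -0.14 over 500 lines of the X chromosome, beside 0.11 over all lines. Against the mean log2 value of the 6 libraries, chromosome 8 stood at -0.29 in Eed null cells and -0.08 in wild-type CJ7 cells. On chromosome 8 3.76% of lines were 2-fold higher and 3.63% lower, the most even split of the autosomes. Chromosome 12 had a median of 0.22 and the largest share of higher autosomal lines, 60 of 497 (12.1%). Such shifts were also seen between Elongin A lines: chromosome 11 stood between -0.57 and -0.45 in the K754M and K754R libraries against EloA_WT. DNA copy number was not measured, and its part in the medians was not tested. Genes named above that lie on chromosome 8 include Zfp42, Rbl2, Col4a1 and Nkd1, and Bcor, Rbbp7 and Rhox6 lie on the X. Xist, the non-coding RNA of X inactivation, was at 23.5 and 13.1 RPKM, though its introns overlap the antisense gene Tsix, which stem cells transcribe. Eif2s3y, on the Y chromosome, was at 0.930 and 2.06 RPKM. Both values lay between the EloA_K754M libraries (0.509 and 0.421 RPKM) and the other Elongin A libraries (2.75 to 4.23 RPKM).

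**Figure D5:**
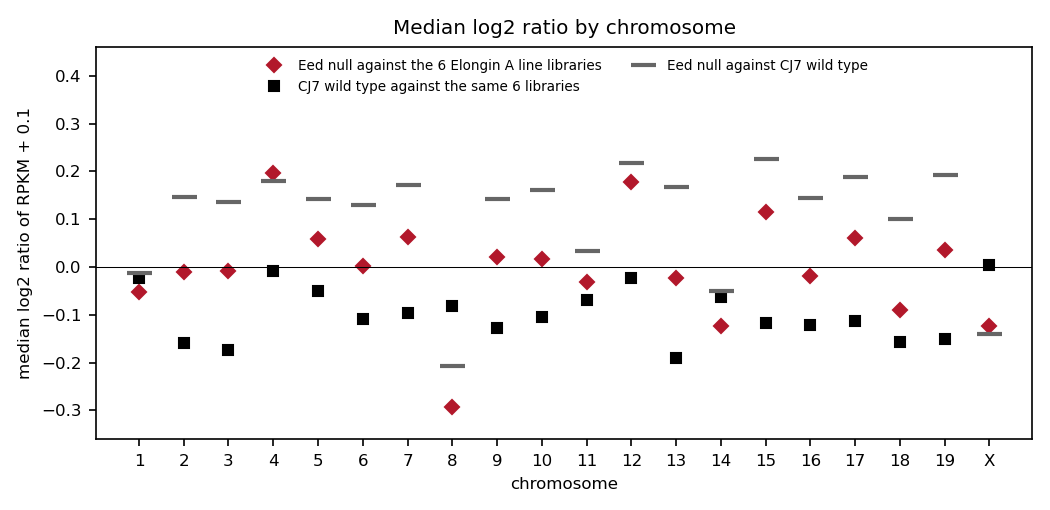
Median log2 ratio of RPKM + 0.1 by chromosome for Eed null against the 6 Elongin A libraries (red diamonds), wild-type CJ7 against the same libraries (black squares) and Eed null against wild-type CJ7 (grey bars). Chromosome 8 is lowest for Eed null cells, at -0.29, while wild-type CJ7 cells are at -0.08 there.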

How the data were processed

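The authors deposited 1 table of intronic RPKM for 24901 gene lines, with 6 columns of single libraries and 2 pooled columns, wild-type CJ7 and Eed null, of 2 libraries each. BWA and the mouse build mm9 are named in the submitters' processing notes. Not given in the sources used here are the BWA version, the counting tool, the gene annotation and the use of strand. Groups follow the sample titles.

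RPKM of 1 gene are whole multiples of what 1 read is worth, so reads could be recovered: 20812 of 20817 genes above 0 in 6 or more columns came out whole within 0.002 reads (99.976%). For 8724 genes the unit was 0.5 read, judged from intron lengths in GENCODE M21. The pooled columns came out whole like the single libraries, as summed reads would.

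The log2 ratio of RPKM + 0.1 was taken for lines with a mean of 0.1 RPKM or more. Past 2-fold is a log2 ratio of 1 or more, or -1 or less. With 1 column per group there is no p-value. Intervals are exact 95% intervals (Clopper-Pearson) of read ratios, and a count of 0 was set to a floor of 3 reads for a bound. Read recovery, the calls past 2-fold and the intervals were tested on simulated data.

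Named genes were the 15 highest and 15 lowest with at least 0.5 RPKM and 20 reads in the higher column, unnamed gene models and lines with repeated values passed over. Further named were up to 4 members of each of 32 lists with 20 or more reads, and a fixed set of Polycomb, pluripotency, cell cycle and DNA methylation genes. Other list members past 2-fold, named to spell out small counts, and the gene models in the closing section were chosen after their values were seen. The members and lists were chosen with earlier results of these data known. Some genes stand on several lists. Chromosomes and overlapping genes come from GENCODE M21, promoter bases from RefSeq (GRCm38.p6), matched by symbol or older symbol for 10738 of 14890 lines. Python 3.11.15, numpy 2.4.6, pandas 2.3.3 and scipy 1.17.1 were used.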

Additional observations from a re-analysis of the deposited data

How the results depend on the processing

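The counts past 2-fold depended on the offset and on the level filter. Against 911 higher and 248 lower lines, an offset of 0.01 RPKM gave 1430 and 411, an offset of 0.5 RPKM 194 and 70, and an offset of 1 RPKM 93 and 40. A mean of 0.5 RPKM or more gave 408 and 129. With 20 or more reads over both columns 753 and 160 lines were past 2-fold, and with introns of 1 kb or more, a choice made after seeing the data, 700 and 143. No filter (1007 and 294), scaling by trimmed means of log ratios (767 and 306), leaving out repeated lines (898 and 244) and leaving out chromosomes 8, X and Y (860 and 210, also chosen after seeing the data) stayed within 1.5 times. The median log2 ratio of all lines was 0 by construction with equal medians. In each of these settings more lines were higher than lower. Of the values of list medians under alternatives, 336 stayed within the main median's order-statistic interval and 16 moved. Of those of named genes, 1311 stayed within counting error and 437 moved. Filters leave a gene's own ratio unchanged, so all moves came from offset or scaling. With offsets of 0.01, 0.5 and 1 RPKM 69, 111 and 136 genes moved and 97, 55 and 30 stayed. With equal medians 68 moved and 98 stayed, and with trimmed means 53 and 113. None past 2-fold changed sign, which these offsets and shifts could not bring about. With equal medians the medians of the naive pluripotency (-0.03), Cdk inhibitor and p53 (-0.06), immediate early (-0.01), elongation factor (-0.10) and histone methylation enzyme (-0.10) lists turned negative, as did Suz12 (-0.07). No paired analysis was possible because the wild-type CJ7 and Eed null replicates are present only as pooled columns, and for the same reason no replicate could be left out. Depth limits the lower lines most: 93 of 248 had under 20 reads in the higher column, and 176 of 911 higher lines.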

Other observations

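Unnamed gene models hold 273 of the 911 higher and 129 of the 248 lower lines, and some of them gave larger ratios than the named genes. The long non-coding RNA Gm12139 on chromosome 11 had 0 reads in wild-type CJ7 and 118 reads in Eed null cells, at least 47.1-fold higher against a floor of 3 reads, with an exact 95% interval that starts at 37.7. The pseudogene Gm10499 on chromosome 17 had 1 and 247 reads (0.00878 and 2.60 RPKM, ratio 296, 52.6 to 11720). Gm8909, a class I histocompatibility gene model in the same region, had 1 and 102 reads and stands on 2 lines with the same values. The long non-coding RNA 2410018L13Rik on chromosome 12 was at 0.0879 and 2.14 RPKM (24.4-fold, 21.3 to 28.0), on 220 and 4478.5 reads, with 0.0494 to 0.0776 RPKM in the 6 libraries. At the other end Gm2128, an unprocessed pseudogene on chromosome 7, had 112 reads in wild-type CJ7 and 0 in Eed null cells, at least 31.2-fold lower against the same floor (the exact 95% interval starts at 25.0), with 0.704 to 7.81 RPKM in the 6 libraries.

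Neighbouring lines gave like ratios at 2 places of the lower end. Gm11607, which overlaps Gpr1 on the opposite strand, was at 4.92 and 1.33 RPKM (3.69-fold lower), beside 3.60-fold for Gpr1. 1700042O10Rik, which overlaps Ddc on the opposite strand, was at 1.96 and 0.411 RPKM (4.78-fold lower), beside 4.75-fold for Ddc. The reads of each pair cannot be told apart without strand. By gene type, 37 of 311 long intergenic RNA lines (11.9%) and 13 of 59 unprocessed pseudogenes (22.0%) were 2-fold higher, beside 687 of 12590 protein-coding lines (5.46%). The intergenic RNA also had a larger share of lines 2-fold lower, 19 (6.11%), beside 124 protein-coding lines (0.985%). Of the unprocessed pseudogenes 1 was lower (1.69%), close to the 1.67% of all lines. Of 142 processed pseudogenes 20 were higher (14.1%) and 22 lower (15.5%).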
